A study of Mus musculus with 15 samples.

Results

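Zfp990, Zfp985, Padi2, Masp2, Rbp7 and Slc2a5 are 6 genes of 1 stretch of mouse chromosome 4 whose transcripts separated miR-210 knockout (KO) from wild-type (WT) libraries. They were chosen by their KO against WT differences in expected counts, after injury and in sham mice, in these same libraries, from 14853 genes tested, while Mir210 itself lies on chromosome 7. Those differences are therefore given as a description; counts of calls printed for them restate the choice and support nothing. The comparison of injury with sham is the test of these 6 genes that the choice did not use. All 6 genes passed the filter on low counts. For Zfp990, Zfp985, Masp2 and Rbp7, 0 of 8 KO libraries reached the filter's minimum of 0.57 CPM (counts scaled to a common library size), against 6, 7, 6 and 3 of 7 WT libraries, so these genes entered the test through the group in which they are high.

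The libraries were made from PDGFRβ-positive cells isolated from the mice, and PDGFRβ is a receptor of pericytes, vascular smooth muscle cells and fibroblasts. There were 4 libraries of KO mice taken 24 h after neonatal hypoxia-ischemia (KO HI), 4 of WT mice taken 24 h after the same injury (WT HI), 4 of KO mice after sham treatment (KO sham) and 3 of WT mice after sham treatment (WT sham). Hypoxia-ischemia combines low oxygen with reduced blood flow. The labels name the genotype only as WT or miR-210 knockout and give no strain, age, knockout allele, cell type of deletion or number of animals behind a library. Replicates are not said to be separate animals, so p-values measure the spread between these libraries.

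Each library held between 15436376 and 18118697 expected counts, which are estimated reads per gene, and 1 count corresponded to about 0.06 CPM. Expected counts below were deposited by the authors, and CPM were computed from them with normalized library sizes. No value of Mir210 was analysed here, so its loss in KO mice was not checked. The sum of 12 pericyte markers ran from 1890 to 6150 CPM in KO HI, 6510 to 9190 CPM in WT HI, 3200 to 9390 CPM in KO sham and 8740 to 12100 CPM in WT sham libraries. The sum of 16 microglia markers ran from 7490 to 16200 CPM in KO HI, 2290 to 5990 CPM in WT HI, 4080 to 7220 CPM in KO sham and 3050 to 4350 CPM in WT sham libraries. The sum of 14 endothelial markers ran from 2970 to 5910 CPM in KO HI, 9210 to 12000 CPM in WT HI, 3420 to 9860 CPM in KO sham and 9690 to 11300 CPM in WT sham libraries. None of these markers was at 0 in every library. After HI the KO and WT ranges of the 3 sums did not overlap, and in sham mice they overlapped for each. The sum of 8 choroid plexus markers ran from 1710 to 58600 CPM in KO HI and 339 to 9620 CPM in WT HI libraries. In sham mice it ran from 260 to 31300 CPM in KO and 1450 to 13200 CPM in WT libraries. For 8 astrocyte markers the sums were 727 to 5930, 815 to 1110, 455 to 13800 and 566 to 1690 CPM in that order. Neuron markers were highest in 5 of the 15 libraries, namely KO HI 2, KO HI 3, KO sham 1, KO sham 3 and WT sham 2. In such bulk samples fewer cells of a type and less RNA per cell cannot be told apart.

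The 6 genes have unrelated roles. Zfp990 and Zfp985 belong to a cluster of KRAB zinc finger genes on mouse chromosome 4; proteins of this family bind DNA, often within transposable elements, and bring in the corepressor Trim28 and the histone methyltransferase Setdb1. Masp2 encodes a serine protease of the lectin pathway of complement, which cleaves C4 and C2 after mannose-binding lectin or ficolins have bound a surface, and most of it is made in the liver. Rbp7 encodes a cellular retinol-binding protein found in adipose tissue and endothelium. Padi2 encodes a peptidylarginine deiminase, an enzyme that turns arginine into citrulline, with myelin basic protein and histones among its substrates. Slc2a5 encodes the fructose transporter GLUT5, which in brain is known as a microglial transcript.

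The promoters are shown because 4 of the genes were low together and the other two high together in KO libraries. RefSeq promoter sequences, from 250 bases before to 50 bases after the start of each gene, matched 5 of the 6 genes, and there was no entry for Zfp990. They are of the build GRCm38.p6, with Zfp985 at chr4:147553027-147553326, Masp2 at chr4:148602294-148602593, Padi2 at chr4:140906110-140906409 and Slc2a5 at chr4:150119094-150119393 on the plus strand and Rbp7 at chr4:149454919-149455218 on the minus strand. Each is printed 5′ to 3′ along its gene, in lower case, with capitals for letters that match any of the motifs listed after the sequences.
Zfp985: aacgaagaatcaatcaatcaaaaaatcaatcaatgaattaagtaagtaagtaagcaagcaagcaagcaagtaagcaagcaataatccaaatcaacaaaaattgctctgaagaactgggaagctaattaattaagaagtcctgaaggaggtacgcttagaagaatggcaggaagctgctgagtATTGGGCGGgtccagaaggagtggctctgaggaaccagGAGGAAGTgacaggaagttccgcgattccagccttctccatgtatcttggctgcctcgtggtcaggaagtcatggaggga
Masp2: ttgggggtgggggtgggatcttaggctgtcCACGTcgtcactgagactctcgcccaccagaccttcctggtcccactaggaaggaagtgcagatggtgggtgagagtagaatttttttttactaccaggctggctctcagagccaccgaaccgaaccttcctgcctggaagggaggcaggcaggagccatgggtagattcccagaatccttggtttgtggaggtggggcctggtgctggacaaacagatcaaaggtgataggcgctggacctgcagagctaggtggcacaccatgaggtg
Rbp7: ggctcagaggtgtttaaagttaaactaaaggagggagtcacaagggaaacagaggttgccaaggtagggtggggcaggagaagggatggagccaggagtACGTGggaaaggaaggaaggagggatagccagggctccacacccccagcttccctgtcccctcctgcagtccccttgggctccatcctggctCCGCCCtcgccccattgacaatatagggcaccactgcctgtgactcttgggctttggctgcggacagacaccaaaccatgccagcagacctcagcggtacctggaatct
Padi2: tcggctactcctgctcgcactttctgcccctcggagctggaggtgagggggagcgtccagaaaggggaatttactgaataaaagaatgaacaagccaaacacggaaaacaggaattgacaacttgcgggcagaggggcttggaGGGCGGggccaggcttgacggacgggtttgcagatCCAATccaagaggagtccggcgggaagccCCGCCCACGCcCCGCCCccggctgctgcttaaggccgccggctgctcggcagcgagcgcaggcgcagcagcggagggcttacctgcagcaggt
Slc2a5: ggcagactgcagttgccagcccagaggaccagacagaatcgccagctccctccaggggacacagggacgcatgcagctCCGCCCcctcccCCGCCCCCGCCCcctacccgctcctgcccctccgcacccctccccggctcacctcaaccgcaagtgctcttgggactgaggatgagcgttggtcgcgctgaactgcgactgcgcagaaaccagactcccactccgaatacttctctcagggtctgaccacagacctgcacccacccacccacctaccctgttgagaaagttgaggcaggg
The motifs searched, on both strands, were the GC box GGGCGG, the CCAAT box CCAAT, the TATA box TATAAA, the hypoxia response cores ACGTG and GCGTG and the PU.1 type ETS site GAGGAAGT. Capitals of neighbouring or overlapping matches run together, as for the GCGTG match that lies between GC boxes in Padi2. The GC box was found in Zfp985 and Rbp7 (1 match each) and in Padi2 and Slc2a5 (3 matches each), and 35.6% of 32817 promoters in the table hold it. ACGTG was found in Masp2 and Rbp7 (1 match each), against 19.6% of all promoters, and GCGTG in Padi2 (1 match), against 32.4%. The CCAAT box was found in Zfp985 and Padi2, against 37.4% of all promoters, and GAGGAAGT in Zfp985, against 3.2%. TATAAA was in 0 of the 5 sequences, against 13.6% of all promoters. No motif searched was shared by all 3 of Zfp985, Masp2 and Rbp7, and none of these matches is evidence that a factor binds there.

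Zfp990 was almost absent from KO libraries. It had 2.67, 1.02, 0 and 0 expected counts in KO HI libraries 1 to 4, against 18.7, 81.8, 89.6 and 8 in WT HI libraries 1, 2, 4 and 5. In sham mice it had 0, 1.01, 2.48 and 2 expected counts in KO libraries 1, 3, 4 and 6, against 126, 62.8 and 124 in WT libraries 1, 2 and 3. Every KO library was below every WT library in both conditions, but the WT HI libraries were themselves uneven, with libraries 1 and 5 far below 2 and 4. Summed over libraries and scaled for their size, WT counts were 49.0 times the KO counts after HI (95% exact interval 18.8 to 182, 4 KO against 198 WT counts) and 79.0 times in sham mice (33.5 to 245, 5 against 313 counts). These intervals cover counting error only and not the spread between libraries. The fitted log2 fold change of KO over WT was -5.45 ± 0.99 (SE) after HI and -6.18 ± 1.01 in sham mice. The SE, here and below, is the absolute log2 fold change divided by the square root of the F statistic of the edgeR test. It is an approximation that can be too small where counts are few.

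Zfp985, a neighbour of Zfp990 in the same cluster, was low in KO libraries but not absent. It had 5, 6.98, 3 and 9 expected counts in KO HI libraries, against 13, 30.6, 17 and 19.7 in WT HI libraries. In sham mice it had 6.01, 4.61, 3 and 6 expected counts in KO libraries, against 28.9, 12.8 and 31.6 in WT libraries. The groups did not overlap, and WT sham 2 was the lowest WT library, as it was among WT sham libraries for Zfp990. The log2 fold change of KO over WT was -1.72 ± 0.43 after HI and -2.16 ± 0.46 in sham mice. Both genes resemble other genes of their family: 26.0% of the 50-base words of Zfp990 transcripts and 16.2% of those of Zfp985 occur in transcripts of other genes, Zfp534 and Zfp986 foremost for Zfp990 and Zfp988 foremost for Zfp985. For words of 100 bases the shares were 1.7% and 1.9%. How the authors' counting split such reads is not given in the sources used here, so the levels of both genes are uncertain.

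Masp2 transcripts were rare in all libraries and rarer in KO. There were 0, 3, 0 and 5 expected counts in KO HI libraries, against 11, 25, 21 and 6 in WT HI libraries. In sham mice there were 4, 2, 3 and 2 in KO libraries, against 14, 10 and 15 in WT libraries. The groups did not overlap, although KO HI 4 with 0.279 CPM and WT HI 5 with 0.340 CPM nearly met. The log2 fold change of KO over WT was -2.89 ± 0.79 after HI and -2.07 ± 0.80 in sham mice, and the counts are too few to place it more closely.

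Rbp7 also had few counts, fewer in KO, and its WT groups were even. It had 3, 2, 1 and 2 expected counts in KO HI libraries, against 16, 12, 15 and 10 in WT HI libraries. In sham mice it had 1, 0, 2 and 2 expected counts in KO libraries, against 7, 7 and 9 in WT libraries. Groups were separate in both conditions, with a log2 fold change of KO over WT of -2.64 ± 0.50 after HI and -2.41 ± 0.56 in sham mice. DESeq2 gave larger errors, with -2.71 ± 0.66 after HI and -2.52 ± 0.82 in sham mice. The edgeR errors may thus be too small for these few counts. Endothelial markers were also lower in KO libraries after HI, where edgeR called 10 of the 14 lower, beside 12.4% of all genes called in either direction. In sham mice 0 of the 14 were called, with log2 fold changes of KO over WT from -1.09 to -0.36, and the marker sums of the genotypes overlapped. Per 1000 CPM of endothelial markers, Rbp7 stood at 0.019 to 0.0287 CPM in KO HI libraries, against 0.0586 to 0.0859 in WT HI libraries, and at 0 to 0.0214 in KO sham libraries, against 0.0354 to 0.0461 in WT sham libraries. These ratios reuse the values by which Rbp7 was chosen, and the part of cell makeup in its difference was not tested.

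Padi2 was higher in KO libraries. It stood at 18.4, 13.2, 19.5 and 10.9 CPM in KO HI libraries 1 to 4, against 3.14, 7.70, 3.21 and 3.79 CPM in WT HI libraries 1, 2, 4 and 5. In sham mice it stood at 25.0, 10.7, 14.6 and 12.4 CPM in KO libraries 1, 3, 4 and 6, against 5.89, 7.21 and 4.42 CPM in WT libraries 1, 2 and 3. The groups did not overlap in either condition, and KO sham 1 was the highest of all 15 libraries. The log2 fold change of KO over WT was 1.79 ± 0.35 after HI and 1.42 ± 0.38 in sham mice, where it was 1.11 without KO sham 1. Oligodendrocytes are a known source of Padi2 in brain, and the 12 markers of their lineage summed to 10000 CPM in KO sham 1 and to 2230 CPM in KO HI 3, the library highest in Padi2 after HI. They summed to 229 CPM in KO HI 1, which had 18.4 CPM of Padi2, and to 888 and 373 CPM in KO HI 2 and 4. In the WT HI libraries they summed to 280 to 409 CPM. In sham mice the sums were 1590, 252 and 336 CPM in KO libraries 3, 4 and 6, and 293 to 862 CPM in WT libraries. The part of these cells in the Padi2 levels was not tested.

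Slc2a5 was higher in KO libraries by more than Padi2. It stood at 51.1, 26.3, 17.9 and 14.9 CPM in KO HI libraries, against 1.66, 1.88, 1.35 and 1.19 CPM in WT HI libraries. In sham mice it stood at 22.6, 37.1, 44.5 and 37.1 CPM in KO libraries, against 1.14, 9.73 and 2.93 CPM in WT libraries. No KO library overlapped with a WT library; the WT HI libraries were even, and WT sham 2 stood above the other WT libraries. The log2 fold change of KO over WT was 4.17 ± 0.60 after HI and 2.94 ± 0.62 in sham mice, where it was 4.11 without WT sham 2.

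All 6 genes were past the threshold of 0.05 for the Benjamini-Hochberg adjusted p in KO against WT after HI (edgeR quasi-likelihood test), beside 12.4% of all genes tested. In sham mice 0 of the 6 were, beside 0.0135% of all genes (2 genes), and all 6 were under an unadjusted p of 0.05, beside 8.56%; after HI all 6 were as well, beside 31.2%. DESeq2 called 3 of the 6 in sham mice, Zfp990, Zfp985 and Slc2a5, and limma-voom called 0. Groups did not overlap for all 6 genes after HI, beside 21.4% of all genes, in sham mice, beside 10.1%, and in the same direction in both, beside 4.07%. An unadjusted p under 0.05 in the same direction in both conditions was found for all 6, beside 5.37%. These counts follow from how the genes were chosen, are no test of them and show nothing further about them. With the replicate number as a block 0 of the 6 were called after HI. The call of Zfp985 after HI was also lost without KO HI 1, KO HI 3, WT HI 4 or WT HI 5, and that of Masp2 without KO HI 1, KO HI 3, WT HI 1, WT HI 2, WT HI 4 or all 5 libraries high in neuron markers, with the direction kept each time. Rbp7 did not pass the filter on low counts without WT HI 1, WT HI 2 or WT HI 4, so that 3 of the 6 were called without WT HI 4.

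**Figure D1:**
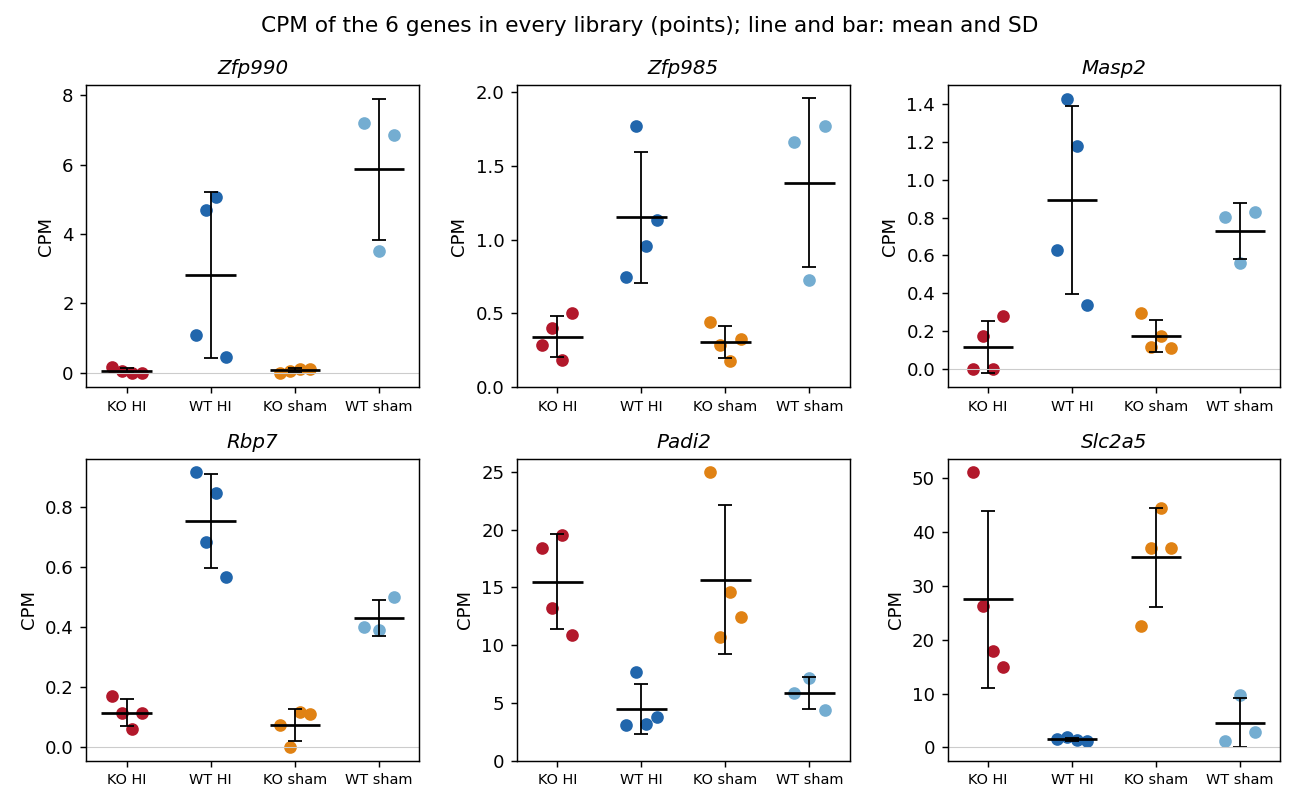
CPM of each of the 6 genes (vertical axis, linear, its own scale per gene) in KO HI, WT HI, KO sham and WT sham libraries; each point is a library, the line is the group mean and the bar its SD. KO and WT points do not overlap in either condition for any of the 6 genes, with Masp2 closest at 0.279 CPM in KO HI 4 and 0.340 CPM in WT HI 5.

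Microglia markers, like Slc2a5 and Padi2, were higher in KO libraries after HI. In KO mice the median log2 fold change of HI over sham was 0.86 for the 16 markers. It was -0.36 ± 0.51 for Slc2a5 and -0.02 ± 0.34 for Padi2. In WT mice the median of the markers was -0.33, beside -1.59 ± 0.59 for Slc2a5 and -0.39 ± 0.37 for Padi2. All 16 markers were called higher in KO against WT after HI by edgeR, beside 12.4% of all genes called in either direction. Their log2 fold changes ran from 1.49 to 2.45 after HI and from 0.53 to 1.04 in sham mice, where none was called. Per 1000 CPM of microglia markers, Slc2a5 stood at 1.48 to 3.51 CPM in KO HI libraries, against 0.314 to 0.685 CPM in WT HI libraries. In sham mice it stood at 5.35 to 6.17 CPM in KO libraries, against 0.274 to 2.24 CPM in WT libraries. These ranges do not overlap. Padi2 stood at 1.08 to 2.14 CPM per 1000 CPM of microglia markers in KO HI libraries, against 1.29 to 1.66 CPM in WT HI libraries, and at 1.74 to 6.14 CPM in KO sham libraries, against 1.41 to 1.66 CPM in WT sham libraries. The Padi2 ranges overlap after HI and not in sham mice. These ratios reuse the values by which both genes were chosen, and the part of cell makeup in the differences of Slc2a5 and Padi2 was not tested.

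**Figure D2:**
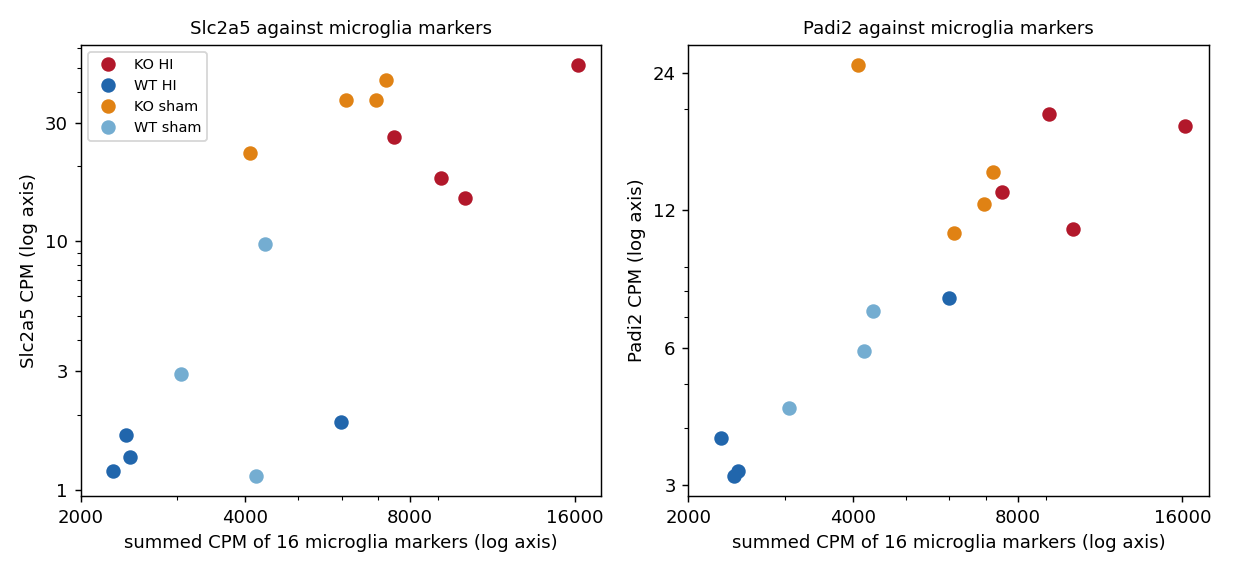
CPM of Slc2a5 (left) and Padi2 (right) against the summed CPM of 16 microglia markers, both axes logarithmic, with a point for each of the 15 libraries coloured by group. KO points lie above WT points at similar marker sums for Slc2a5, while Padi2 lies close to a common line apart from KO sham 1 at 25.0 CPM.

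The injury itself moved none of the 6 genes past the test in either genotype. In KO mice the log2 fold change of HI over sham was -0.32 ± 1.17 for Zfp990, 0.17 ± 0.45 for Zfp985, -0.54 ± 0.86 for Masp2, 0.57 ± 0.59 for Rbp7, -0.02 ± 0.34 for Padi2 and -0.36 ± 0.51 for Slc2a5. By edgeR's quasi-likelihood test 0 of the 6 were called in KO mice, beside 7.01% of all genes, and 0 had an unadjusted p under 0.05, beside 22.0%; DESeq2 and limma-voom also called 0. Groups overlapped for all 6 genes in KO mice, where 8.84% of all genes did not overlap. For Zfp990, Zfp985, Masp2 and Rbp7, 0 of 8 KO libraries reached the filter's minimum of 0.57 CPM. With so few counts these genes were unlikely to be called in KO mice. The shares of all genes are therefore no measure for them there. In WT mice the log2 fold change of HI over sham was -1.05 ± 0.78 for Zfp990, -0.27 ± 0.44 for Zfp985, 0.29 ± 0.74 for Masp2, 0.80 ± 0.48 for Rbp7, -0.39 ± 0.37 for Padi2 and -1.59 ± 0.59 for Slc2a5. Here 0 of the 6 were called by edgeR, beside 1.82% of all genes, 1 had an unadjusted p under 0.05, beside 12.8%, and DESeq2 and limma-voom called 0. These standard errors leave room for changes of about the size of the error or more, so the data do not show that the levels stayed the same. For Rbp7 in KO mice DESeq2 gave a larger error (0.62 ± 0.90).

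The gene with the unadjusted p under 0.05 was Slc2a5, whose adjusted p was 0.241 by edgeR. It had 1.66, 1.88, 1.35 and 1.19 CPM in WT HI libraries, against 1.14, 9.73 and 2.93 CPM in WT sham libraries, so the groups overlapped. Without WT sham 2 the log2 fold change was -0.42. Rbp7 was the only 1 of the 6 whose WT HI libraries, at 0.914, 0.684, 0.846 and 0.566 CPM, did not overlap with the WT sham libraries, at 0.400, 0.391 and 0.498 CPM; such a lack of overlap was found for 31.7% of all genes, and its adjusted p was 0.568. The response of KO minus that of WT, which is built from the differences that chose the genes and is given without a test, was 0.73 ± 1.60 for Zfp990, 0.44 ± 0.63 for Zfp985, -0.83 ± 1.13 for Masp2, -0.22 ± 0.95 for Rbp7, 0.37 ± 0.50 for Padi2 and 1.23 ± 0.78 for Slc2a5.

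The order of the group means followed genotype, which restates how the 6 genes were chosen and is given as a description. Padi2 averaged 15.5 ± 4.12 CPM in KO HI, 4.46 ± 2.18 in WT HI, 15.7 ± 6.44 in KO sham and 5.84 ± 1.39 in WT sham (SD, n = 4, 4, 4 and 3). Slc2a5 averaged 27.6 ± 16.4 CPM in KO HI, 1.52 ± 0.309 in WT HI, 35.3 ± 9.18 in KO sham and 4.60 ± 4.53 in WT sham. For both, HI and sham of the same genotype were neighbours in the order and did not differ beyond their spread. Zfp990 averaged 0.0568 ± 0.0799 CPM in KO HI, 2.82 ± 2.39 in WT HI, 0.0705 ± 0.0540 in KO sham and 5.86 ± 2.03 in WT sham. Zfp985 averaged 0.342 ± 0.140 CPM in KO HI, 1.15 ± 0.441 in WT HI, 0.306 ± 0.110 in KO sham and 1.38 ± 0.573 in WT sham. Masp2 averaged 0.113 ± 0.138 CPM in KO HI, 0.894 ± 0.498 in WT HI, 0.172 ± 0.0854 in KO sham and 0.730 ± 0.149 in WT sham. Rbp7 averaged 0.114 ± 0.0445 CPM in KO HI, 0.753 ± 0.157 in WT HI, 0.0747 ± 0.0532 in KO sham and 0.430 ± 0.0590 in WT sham. For the 4 genes low in KO the 2 KO groups likewise lay within their spread of each other, and the 2 WT groups did so for Zfp985 and Masp2.

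In the reference gene order the 6 genes run Padi2, Zfp990, Zfp985, Masp2, Rbp7, Slc2a5, which is not the order of their directions: genes high in KO stand at both ends and genes low in KO between them. The stretch from Padi2 to Slc2a5 holds 293 genes of the reference order, 140 of them protein-coding, of which 108 had values and 88 were tested. Without the 6 genes, 8 of the other 82 (9.76%) were called in KO against WT after HI, below the 12.4% of all genes. Groups did not overlap in the same direction in both conditions for 4 of the 82 (4.88%), near the 4.07% of all genes; these were Mfap2, Rex2 and Fbxo6, lower in KO libraries, and Zfp991, higher. An unadjusted p under 0.05 in the same direction in both conditions was found for 12 of the 82 (14.6%), against 5.37% over all genes. In sham mice alone 19 of the 82 (23.2%) had an unadjusted p under 0.05, against 8.56% of all genes. The median log2 fold change of the 82 genes was 0.08 after HI and 0.11 in sham mice, against 0.06 and 0.05 over all genes; genes of the stretch went both ways. Across chromosomes, between 2.34% and 5.36% of the genes did not overlap in both conditions, with 4.7% on chromosome 4.

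**Figure D3:**
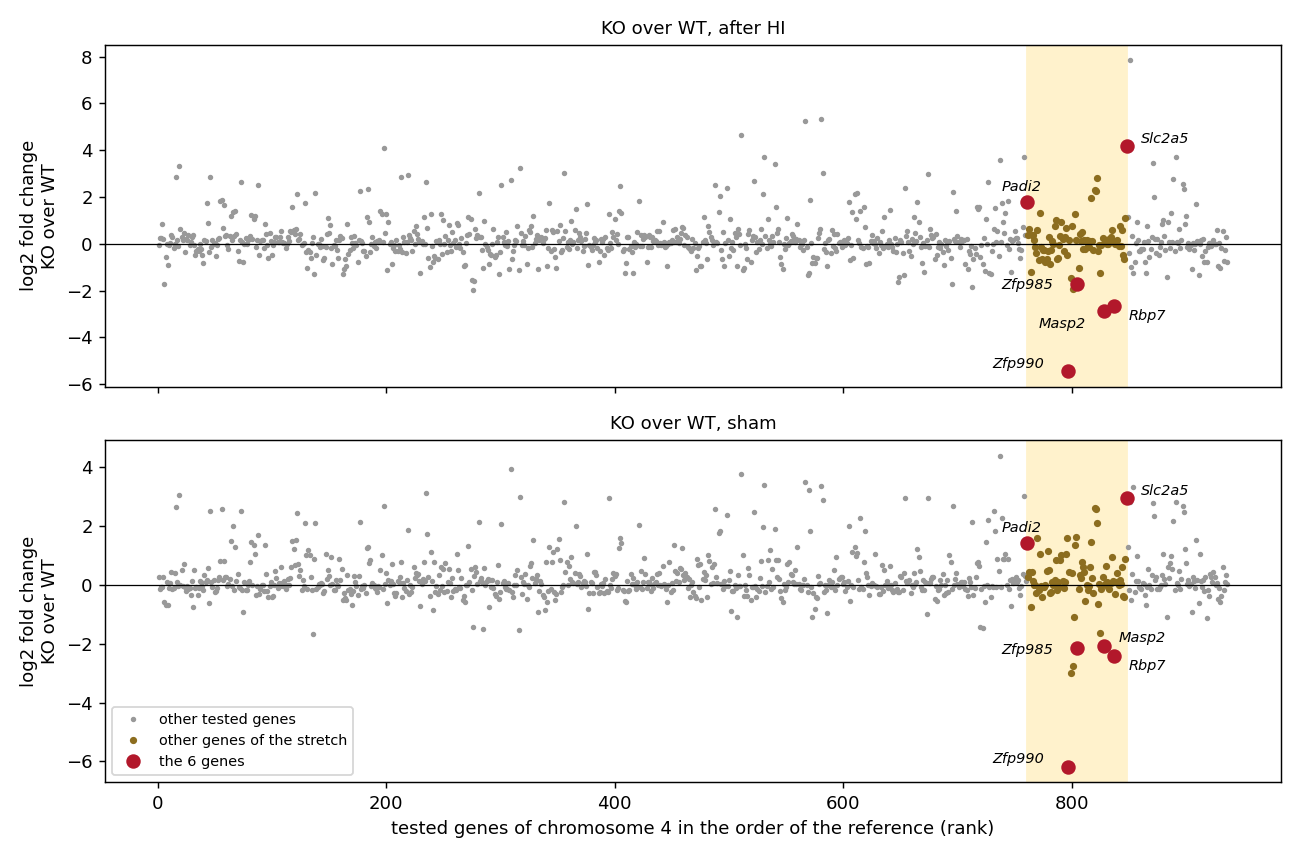
Log2 fold change of KO over WT (vertical axis) for the 936 tested genes of chromosome 4 in the order of the reference (horizontal axis, rank), after HI (top) and in sham mice (bottom); the shaded band runs from Padi2 to Slc2a5, red points are the 6 genes and brown points the other genes of the band. Zfp990 is the lowest point of the band in both panels, and most of the other genes of the band lie near 0.

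Direct neighbours of the 6 genes differed among themselves. Tardbp, an RNA-binding protein gene next to Masp2, had a log2 fold change of KO over WT of 0.02 ± 0.10 after HI and 0.03 ± 0.10 in sham mice. Srm, the spermidine synthase gene on its other side, had 0.26 ± 0.15 after HI and 0.28 ± 0.17 in sham mice. Ube4b, a ubiquitin ligase gene, and Nmnat1, an NAD synthesis gene, flank Rbp7 and had 0.10 ± 0.08 and 0.01 ± 0.20 after HI. Beside Padi2, Sdhb, a subunit of mitochondrial complex II, had 0.36 ± 0.15 after HI and was not called (adjusted p = 0.121, edgeR), while Rcc2, a regulator of chromosome condensation family gene, was called at 0.38 ± 0.11 (adjusted p = 0.0337, edgeR). The neighbours of Slc2a5 on both sides rose with it after HI: Gpr157, an orphan receptor gene, by 1.09 ± 0.30 (adjusted p = 0.0337, edgeR) and Eno1, the glycolytic enolase gene, which has a near-identical copy described further on, by 1.16 ± 0.26 (adjusted p = 0.0147, edgeR). Their fold changes in sham mice were 0.87 ± 0.33 and 1.29 ± 0.28, neither of them called by edgeR or limma-voom, while DESeq2 called Eno1 (adjusted p = 0.00748). Tnfrsf8 and Gm13212, the tested genes on either side of Zfp990, had -0.49 ± 0.61 and 0.15 ± 0.22 after HI. In sham mice they had 1.59 ± 0.70 and 0.43 ± 0.24, so Tnfrsf8 had opposite signs in the 2 comparisons; neither gene was called in sham mice (adjusted p = 0.477 for both, edgeR), and Tnfrsf8 had an unadjusted p of 0.0414 there. The other called genes of the stretch after HI included Efhd2, a calcium-binding protein gene, at 0.77 ± 0.19 and Vps13d, a lipid transfer protein gene, at -0.31 ± 0.09. Genes called after HI were thus interspersed with genes that did not pass the test.

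Around Zfp990 and Zfp985 the zinc finger genes differed in both directions. Counted here were genes whose symbol starts with Zfp, and Rex2, in the stretch or among the 50 genes on each side. Genes with other names were left out. Among them was Gm13212, which shares 7.0% of the 50-base words of Zfp985 and was not called in either KO against WT comparison. The reference order holds 17 genes counted in this way, of which 16 had values and 11 were tested. Of these, 2 rose and 3 fell in KO against WT after HI (45.5%, or 3 of 9 without Zfp990 and Zfp985), beside 12.4% of all genes. Zfp991 and Zfp992 rose, by 1.26 ± 0.27 (adjusted p = 0.0128, edgeR) and 0.78 ± 0.21 (adjusted p = 0.0335, edgeR), and Zfp979 fell by 1.02 (SE 0.27, adjusted p = 0.027, edgeR). In sham mice 0 of the 11 were called by edgeR and 6 (54.5%, or 4 of 9 without Zfp990 and Zfp985) had an unadjusted p under 0.05, beside 8.56% of all genes, while DESeq2 called 4 (1 higher and 3 lower) and limma-voom 0. Zfp982 stood at 9.04, 13.2, 7.62 and 10.3 CPM in KO HI libraries, against 9.43, 3.88, 8.63 and 14.6 CPM in WT HI libraries, and at 11.6, 12.3, 16.2 and 10.5 CPM in KO sham libraries, against 1.89, 6.48 and 3.87 CPM in WT sham libraries. It was thus separate between genotypes in sham mice only, where its log2 fold change was 1.63 ± 0.44 and not called (adjusted p = 0.477 by edgeR, 0.0632 by DESeq2 and 0.586 by limma-voom). Of 8 regulators of KRAB zinc finger proteins, Trim28 and Setdb1 among them, 0 were called in either KO against WT comparison by edgeR. An unadjusted p under 0.05 was found for 2 after HI (25.0%, beside 31.2% of all genes) and for 0 in sham mice (beside 8.56%). DESeq2, which called more of all genes after HI than edgeR did, called 2 of the 8 after HI and 0 in sham mice. With limma-voom 0 were called in both.

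Within WT, the same libraries were low for several of these genes. WT HI 1 and WT HI 5 had 18.7 and 8 expected counts of Zfp990, against 81.8 and 89.6 in WT HI 2 and 4. Rex2, another zinc finger gene of the stretch, had 4.95 and 7.45 expected counts in WT HI 1 and 5, against 15.2 and 12.8 in WT HI 2 and 4, and Zfp987 had 3 and 3.69, against 11.5 and 13. Masp2 had 11 and 6 expected counts in WT HI 1 and 5, against 25 and 21 in WT HI 2 and 4. Zfp985 and Rbp7 did not follow: Zfp985 was second highest in WT HI 5 and Rbp7 highest in WT HI 1. KO libraries had 0 to 7.68 expected counts of Rex2 and 0.86 to 4 of Zfp987. Zfp987 was named after its values were seen.

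Eno1b, an enolase gene on chromosome 18 and likewise named after its values were seen, followed the same libraries. It had 0.51, 4.31, 3.55 and 0 expected counts in KO HI libraries, against 1010, 5340, 2620 and 1030 in WT HI libraries, and 1.10 to 5.29 in KO sham libraries, against 5280, 3510 and 5430 in WT sham libraries. Its log2 fold change of KO over WT was -10.01 ± 0.80 after HI and -10.37 ± 0.79 in sham mice (adjusted p = 0.000165 and 0.000103, edgeR). Eno1b is a near-identical copy of Eno1, which directly follows Slc2a5, and reads of the 2 genes may be split by the counting, so both levels are uncertain. Summed, they gave 805, 939, 898 and 578 CPM in KO HI libraries, against 424, 632, 447 and 501 CPM in WT HI libraries, and 1060, 685, 465 and 491 CPM in KO sham libraries, against 516, 514 and 597 CPM in WT sham libraries. The sum overlapped between the genotypes in both conditions, whereas neither gene alone did.

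**Figure D4:**
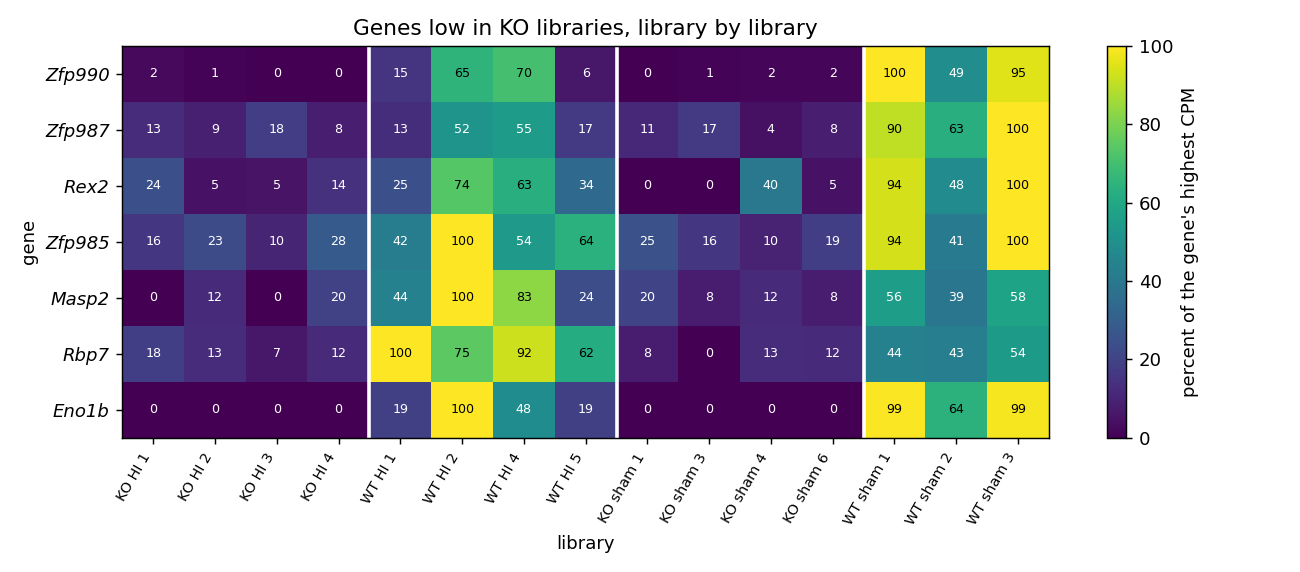
CPM of 7 genes low in KO libraries, each as a percent of that gene's highest library (colour and printed number), for the 15 libraries in the order KO HI, WT HI, KO sham and WT sham, divided by white lines. WT HI 1 and WT HI 5 are darker than WT HI 2 and WT HI 4 for Zfp990, Zfp987, Rex2, Masp2 and Eno1b, and not for Rbp7.

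The genes whose pattern was most like that of each of the 6, by the mean absolute difference of centred log2 CPM over the 15 libraries, mostly lay on other chromosomes. For Padi2 they were Ppfia4 (0.18, chromosome 1) and 0610040J01Rik (0.19, chromosome 5). For Slc2a5 they were Col28a1 (0.75, chromosome 6), a collagen gene, and Siglech (0.96, chromosome 7), a microglia marker. For Rbp7 they were Sik1 (0.30, chromosome 17) and Bhlhe40 (0.31, chromosome 6). For Zfp985 they were Sfrp2 (0.45, chromosome 3) and Cyp2d22 (0.47, chromosome 15), and for Masp2 Enpp3 (0.58, chromosome 10) and Nr4a2 (0.59, chromosome 2). For Zfp990 they were Tma7-ps (1.02, chromosome 1) and Rex2 (1.26, chromosome 4), the only 1 of the 12 within the stretch. Tma7-ps had 0 expected counts in all 4 KO HI libraries, against 0, 70.5, 0 and 0 in WT HI libraries, and 0, 0, 0 and 0.35 in KO sham libraries, against 75.5, 39 and 65.5 in WT sham libraries. A difference of 1 corresponds to a factor of 2 in CPM on average, so the likeness for Zfp990 is loose.

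The wider pathways of these genes are given from fixed gene lists. Of the 5 peptidylarginine deiminase genes only Padi2 passed the filter on low counts. Of the lectin pathway, 9 of 13 genes were tested, and after HI 1 rose and 1 fell in KO against WT. This was 22.2%, beside 12.4% of all genes, as for the lists that follow. Masp2, the gene that fell, was chosen for this difference and is part of that share. Fcna, a ficolin gene, rose by 1.58 ± 0.33 (adjusted p = 0.0122, edgeR) and was the only other gene called. The median of the 9, Masp2 included, was 0.46, against 0.06 over all genes. Of 14 tested genes of hexose transport and fructose metabolism, 5 rose and 1 fell (42.9%, with Slc2a5 chosen for this difference); besides Slc2a5, Sord, the sorbitol dehydrogenase gene that yields fructose, rose by 1.01 ± 0.17 (adjusted p = 0.00595, edgeR) and Slc2a6, a hexose transporter gene, by 1.24 ± 0.31 (adjusted p = 0.0225, edgeR). Their median was 0.50. Of 22 genes of retinoid binding and metabolism 0 rose and 4 fell (18.2%, with Rbp7 chosen for this difference), with a median of -0.57; besides Rbp7, Rdh10, which makes retinal, fell by 1.21 (SE 0.19, adjusted p = 0.00547, edgeR) and Cyp26a1, which breaks down retinoic acid, fell by 3.64 (SE 0.59, adjusted p = 0.00563, edgeR). In sham mice 0 genes of these lists were called by edgeR in KO against WT. An unadjusted p under 0.05 was found for 1, 2, 3 and 2 of them in the order of the lists named here. These were 100%, 22.2%, 21.4% and 9.09% of those tested, beside 8.56% of all genes. Each count includes the gene of its list that was chosen for this difference, so the shares support nothing. Of the genes of these lists DESeq2 called 1 in sham mice, Slc2a5, and limma-voom 0.

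Some genes of these lists were called for HI against sham by edgeR. In WT mice 0 of 9 lectin pathway, 1 of 14 hexose (7.14%) and 2 of 22 retinoid genes (9.09%) were, beside 1.82% of all genes. In KO mice 1 of 9 (11.1%), 2 of 14 (14.3%) and 0 of 22 were, beside 7.01%. The lists were not tested against the 6 genes. In WT mice Cyp26a1 rose by 3.98 ± 0.68 in HI against sham (adjusted p = 0.0105, edgeR) and Rdh10 by 1.35 ± 0.21 (adjusted p = 0.00596, edgeR), the only 2 of 22 retinoid genes called. Cyp26a1 stood at 1.71, 0.627, 2.71 and 2.49 CPM in WT HI libraries, against 0.172, 0.112 and 0.0553 CPM in WT sham libraries, with no overlap. Slc2a6 rose by 1.86 ± 0.31 in KO mice (adjusted p = 0.00639, edgeR) and by 1.93 ± 0.36 in WT mice (adjusted p = 0.0156, edgeR). C4b, the complement component that Masp2 cleaves, rose by 1.04 ± 0.27 in KO mice (adjusted p = 0.0385, edgeR) and stood at 1.25 ± 0.30 in WT mice, where edgeR did not call it (adjusted p = 0.055) and DESeq2 and limma-voom did (adjusted p = 0.00127 and 0.0429). Within the stretch Srm rose in both genotypes, by 0.73 ± 0.16 in KO mice (adjusted p = 0.0161, edgeR) and 0.75 ± 0.17 in WT mice (adjusted p = 0.0429, edgeR). In all, 5 of the 88 tested genes of the stretch (5.68%) were called for HI against sham in KO mice and 1 of 88 (1.14%) in WT mice, against 7.01% and 1.82% of all genes.

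For comparison, the 30 genes on each side of Mir210 in the reference order gave 34 tested genes. Of these, 4 (11.8%) fell and 0 rose in KO against WT after HI, beside 12.4% of all genes called in either direction. In sham mice 0 were called by edgeR, DESeq2 or limma-voom. There 3 had an unadjusted p under 0.05 (8.82%, near the 8.56% of all genes). After HI the 3 with the smallest p were Ifitm1, Ifitm2 and Ifitm3, interferon-induced transmembrane protein genes whose similar sequences may share reads. Ifitm1 fell by 1.52 (SE 0.33, adjusted p = 0.0127, edgeR), and stood at 63.5, 31.4, 42.4 and 74.5 CPM in KO HI libraries, against 176, 108, 166 and 159 CPM in WT HI libraries.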

How the data were processed

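Per gene and library the authors deposited expected counts, which are reads estimated to come from that gene, for 15 libraries and without normalization. The unit was inferred from RSEM being among the tools and from 3.12% to 3.92% of the values of a library not being whole. HISAT2 2.1.0, Bowtie2 2.4.4, Bowtie, RSEM 1.3.1, DESeq2 1.4.5 and the build mm39 are named in the submitters' processing notes; what each tool did is not given in the sources used here. Of 65535 lines, 17892 held values and 17862 matched a symbol.

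After rounding to whole numbers, 14853 genes passed filterByExpr (minimum count 10). The 4 groups were fitted together with edgeR 4.0.16 (TMM, glmQLFit, glmQLFTest) in R 4.3.3, with p-values adjusted by Benjamini-Hochberg over all genes and a threshold of 0.05. CPM use TMM library sizes. The code was tested on simulated data. Changes were planted there only in genes with more counts than Zfp990, Zfp985, Masp2 and Rbp7 had, so that test does not cover these 4 genes. DESeq2 1.42.0, limma-voom (limma 3.58.1), other filters, size factors, groups of libraries and leaving out each library were alternatives. Replicates of a group differed by more than sampling noise. Gene order and names came from RefSeq on GRCm38.p6, a build that precedes mm39, and repeated words from GENCODE M21 transcripts. The 6 genes and the lists were chosen with earlier results of these data known. Named genes were the 6, their nearest tested neighbours, up to 6 called genes of the stretch, the 2 most alike genes per gene and up to 3 called genes per list; exceptions are stated.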

Additional observations from a re-analysis of the deposited data

Results flagged for a closer look

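Of 144 groups of 4 libraries checked over 48 named genes, 14 held a library far from the others by Dixon's criterion, and chance flags about 1 in 20 groups. In 8 of the 14 the library was WT HI 2, which was the highest for Padi2 (7.7 CPM), Gpr157 (23.8 CPM), Ppfia4 (33.5 CPM), 0610040J01Rik (12.5 CPM), Siglech (41.4 CPM), Slc2a6 (11 CPM) and Tma7-ps (3.99 CPM), and the lowest for Ifitm2 (167 CPM). The summed microglia markers of WT HI 2, 5990 CPM, were the highest of the WT HI libraries, and their part in these values was not tested. Sdhb was high in KO HI 3 (115 CPM) and in KO sham 1 (108 CPM), and Ppfia4 in KO sham 1 (124 CPM). Siglech was high in KO HI 1 (181 CPM), Sik1 in WT HI 1 (176 CPM) and Rex2 in KO sham 4 (0.463 CPM).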

How the results depend on the processing

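In KO against WT, each of the 6 genes kept its direction in every alternative in which it passed the filter. These were all alternatives for Padi2, Zfp985 and Slc2a5; Zfp990 (after HI), Masp2 and Rbp7 did not pass in the fit of the 2 groups alone, and Rbp7 did not pass without WT HI 1, WT HI 2 or WT HI 4. Few counts limit Zfp990, Zfp985, Masp2 and Rbp7, and the cause of the shifts listed here was not tested unless a reason is given. The labels do not say what the replicate numbers stand for. Correlations of deviations between libraries of the same number ran from -0.784 to 0.793, which does not settle whether the numbers pair libraries. With the replicate number as a block, 0 of the 6 genes and 0 genes of the stretch were called after HI (adjusted p of the 6 from 0.0591 to 0.158), with 21 of all genes in place of 1844; the block left 1 gene called in KO against WT in sham mice, 16 genes (0 in the stretch) for HI against sham in WT and 73 (0 in the stretch) in KO. It turned the log2 fold change of Zfp990 for HI against sham in KO to 0.03, with no call before or after.

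After HI, KO against WT gave 3399 called genes with DESeq2 (25 in the stretch) and 3440 without the 5 libraries high in neuron markers (23 in the stretch), and the stretch without the 6 genes gave 8. A fit of those groups alone called 3 of the 6, because Zfp990, Masp2 and Rbp7 did not pass its filter. In sham mice 2 genes were called; DESeq2 called 32 (6 in the stretch, 3 of the 6 genes), limma-voom 0, the fit of those groups alone 1, and the fit without the 5 libraries 5 (1 in the stretch). For HI against sham in WT, with 271 genes called, DESeq2 called 782 (7 in the stretch), the fit of those groups alone 2443 (15), the fit without the 5 libraries 750 (7), and the widened stretch held 2. In KO, with 1041 called, the same alternatives gave 1932 (11), 16 (0) and 2458 (14), and the widened stretch held 8. None of the 6 genes was called for HI against sham in any alternative in which it passed the filter. The log2 fold change of Padi2 for HI against sham in KO was 0.05 with limma-voom and 0.10 without the 5 libraries.

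Leaving out each library in turn gave 481 to 3605 genes after HI (3 to 6 of the 6 genes, 4 to 28 of the stretch) and 1 to 2 genes in sham mice (0 of the 6 and 0 of the stretch). For HI against sham it gave 355 to 1927 genes in KO (2 to 10 of the stretch) and 48 to 554 in WT (0 to 3 of the stretch). The log2 fold change for HI against sham in KO ran from -0.16 to 0.30 for Padi2, -1.61 to 0.04 for Zfp990 and -0.08 to 0.38 for Zfp985, and in WT from -0.02 to 0.58 for Masp2; none was called.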
